A study of Caenorhabditis elegans with 2 samples.

Results

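REF-2 ChIP-seq signal was described at 10 Caenorhabditis elegans genes of the retinoblastoma (Rb), E2F and G1 cell cycle machinery, out of 19973 protein-coding genes on the nuclear chromosomes. The genes were lin-35, efl-1, dpl-1, cye-1, cdk-4, cyd-1, cdk-2, cki-1, cul-1 and lin-23. They were chosen by their role and with the peak lists described here already seen, so their peaks and signals chose them and are given as a description, with no test. For each gene the window ran over the gene body, 2000 bp upstream and 1000 bp downstream on the WBcel235 assembly (ce11), and a peak was counted where its summit, the position of its highest signal, fell in the window. All 10 gene names matched the annotation.

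REF-2 is a Zic-type zinc finger protein that binds DNA. Its binding was profiled by ChIP-seq, the sequencing of DNA precipitated with a protein, in whole hermaphrodite late embryos taken 3 hours after synchronization by egg bleaching. Both samples came from strain OP520, genotype unc-119(tm4063) III; wgIs520, in which a transgene adds REF-2 with GFP and FLAG at its C-terminus, and the precipitating antibody was against GFP. They are 2 biological replicates of 1 group, with no other condition, and the labels do not say whether they were separate cultures. The tagged protein comes from an added transgene of 1 strain, and the cells that bind it were not separated, so fewer cells with binding and less binding per cell cannot be told apart.

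In the Rb pathway of animals, an Rb family protein bound to E2F and DP holds back genes needed for DNA replication. Cyclin D with Cdk4 and cyclin E with Cdk2 phosphorylate Rb and relieve that block, p27-like inhibitors restrain these kinases, and SCF ubiquitin ligases mark cyclins and other regulators for destruction. In C. elegans these genes set when blast cells of the embryo and larva stop and resume division, and lin-35, efl-1 and dpl-1 also belong to the synthetic multivulva genes, which restrain vulval fates. Worm Rb, E2F and DP proteins also form the DREAM complex, in which a partner recognizes the CHR element.

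The DNA under 5 of the summits is printed to show the regions themselves. Peaks came in a short list thresholded on reproducibility between replicates, here called the optimal list, and in relaxed lists that, by the names of the deposited lists, hold background as well as peaks. The first 4 sequences lie at the optimal summits of efl-1, cdk-4, cki-1 and lin-23, and the last at the strongest pooled summit of cyd-1, the nearest to the optimal list among the genes that missed it. Each is 200 bp centred on the summit, from the plus strand of the RefSeq copy of WBcel235, 5′ to 3′. Capitals mark matches, on either strand, to 3 sets of words: a Zic core (CAGCAGG or CAGCGGG), an E2F site (TTTCCCGC, TTTGGCGC, TTTCGCGC or TTTGCCGC) and a CHR element (TTTGAA or TTCGAA).
efl-1 chrV:16965783-16965982: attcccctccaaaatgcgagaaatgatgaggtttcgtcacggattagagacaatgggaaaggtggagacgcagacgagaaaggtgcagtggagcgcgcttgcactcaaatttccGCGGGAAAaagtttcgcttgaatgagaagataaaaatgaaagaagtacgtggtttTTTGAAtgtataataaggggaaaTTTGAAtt
cdk-4 chrX:13519088-13519287: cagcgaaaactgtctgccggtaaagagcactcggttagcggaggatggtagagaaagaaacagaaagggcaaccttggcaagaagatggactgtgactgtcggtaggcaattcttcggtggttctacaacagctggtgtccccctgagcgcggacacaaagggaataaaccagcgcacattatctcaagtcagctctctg
cki-1 chrII:7810911-7811110: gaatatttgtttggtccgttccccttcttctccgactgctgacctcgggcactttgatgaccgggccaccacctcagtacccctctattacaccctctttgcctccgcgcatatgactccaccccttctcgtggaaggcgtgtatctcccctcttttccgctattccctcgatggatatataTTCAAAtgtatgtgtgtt
lin-23 chrII:6370225-6370424: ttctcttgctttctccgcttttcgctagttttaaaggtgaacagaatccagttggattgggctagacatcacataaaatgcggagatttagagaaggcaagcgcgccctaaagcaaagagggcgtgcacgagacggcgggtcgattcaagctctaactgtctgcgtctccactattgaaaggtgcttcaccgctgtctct
cyd-1 chrII:12987663-12987862: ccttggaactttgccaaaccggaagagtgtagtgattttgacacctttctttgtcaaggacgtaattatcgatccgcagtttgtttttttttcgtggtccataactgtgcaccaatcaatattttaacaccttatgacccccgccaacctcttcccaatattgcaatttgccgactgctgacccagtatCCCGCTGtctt
The efl-1 window holds an E2F word 18 bp from the summit and CHR words at 72 and 94 bp. The cki-1 window holds a CHR word at 84 bp and the cyd-1 window a Zic core at 92 bp. The cdk-4 and lin-23 windows hold none of these words.

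An optimal summit lay in the window of 6 of the 10 genes, namely lin-35, efl-1, cye-1, cdk-4, cki-1 and lin-23, whereas 12.7% of all protein-coding genes had one (2531 of 19973). The rule used these peaks, so nothing is read from that difference. All 6 also had one in the promoter window, which spans 1000 bp before and 200 bp after the gene's annotated 5′ end, a position held by 6.29% of all genes. The 6 genes carried 7 summits, cye-1 having 2, of which 6 lay upstream of the gene and 1 in an intron. The other 4 genes, dpl-1, cyd-1, cdk-2 and cul-1, had weaker summits only. The relaxed lists of 30000 entries each gave all 10 genes a summit. They also reached most genes, 71.4% in the pooled list, 71.9% in that of replicate 2 and 73.2% in that of replicate 1.

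**Figure D1:**
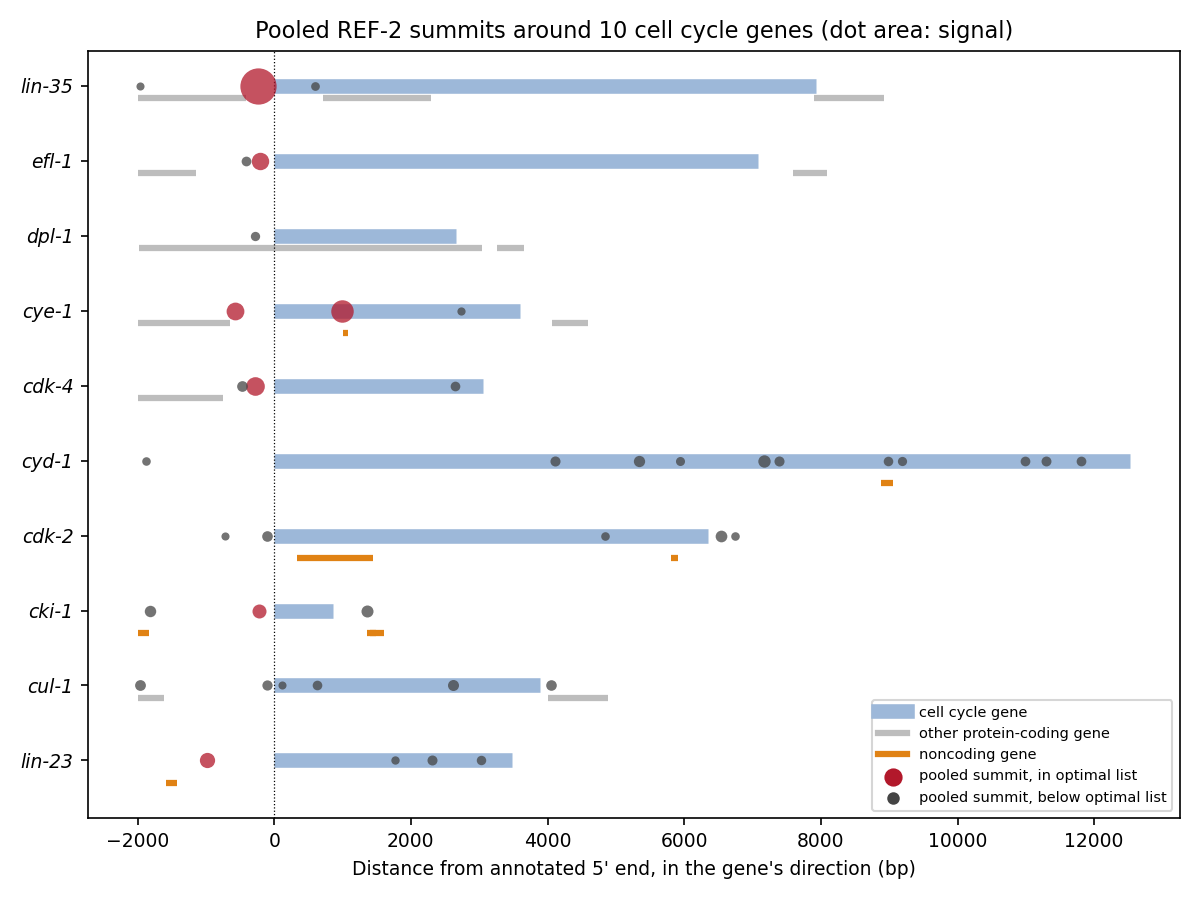
Pooled REF-2 summits along the 10 genes, drawn against distance in bp from the annotated 5′ end in the direction of each gene, with gene bodies in blue, other protein-coding genes in grey and noncoding genes in orange. Dot area follows pooled signal and red dots are in the optimal list: 6 of the 7 red dots lie left of the 5′ end, and the largest is at lin-35.

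The optimal list held 2129 peaks with a median signal of 145.7, and these were exactly the 2129 strongest peaks of the pooled relaxed list, with a lowest signal of 105.5. Of these, 2112 had a summit within 200 bp in both replicates, so not every optimal peak was itself matched in each. The −log10 q deposited with each entry ran from 0.954 to 2.87 in the optimal list and down to 0.0557 in the pooled relaxed list. An entry outside the optimal list is therefore a position with a signal and is not shown to be above background. By this q alone, the weakest entries of the optimal list are not clearly above background either. Signal is the authors' own value per peak, in units of its list. Its median was 52.79 in the pooled relaxed list, 30.39 in replicate 2 and 25.93 in replicate 1, so the lists are on different scales. The gene encoding REF-2 had 4 optimal summits in its own window, up to a pooled signal of 371.4. The strain carries an added transgene of this gene, and its part in that signal was not tested. At unc-119 there was no optimal summit, and the strongest pooled one had 97.91. Reads were not analysed here, so the depth behind each value is unknown.

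Among the chromatin and transcription factor genes, lin-35 stood far above the rest. It encodes the only Rb family protein of C. elegans (WBGene00003020, chromosome I 5807709 to 5815637, plus strand). Its optimal peak spanned 5807395 to 5807618, with the summit at 5807475, 234 bp upstream of the annotated 5′ end. The signal was 416.0 in replicate 2 (rank 6), 342.3 in replicate 1 (rank 9) and 756.7 pooled (rank 8), so lin-35 was among the 10 strongest peaks of each. The pooled signal was 7.17 times the lowest and 5.19 times the median of the optimal list, and 0.0901% of all protein-coding genes had a pooled summit as strong in their window. The replicate summits lay 3 bp (replicate 2) and 2 bp (replicate 1) from the pooled one.

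The lin-35 summit lay in a gap of 418 bp between lin-35 and vps-51, which is transcribed away from it, and the 5′ end of vps-51 was the closer, at 184 bp. The lists therefore do not assign this peak to lin-35 alone. vps-51 encodes a subunit of a complex that tethers vesicles to the Golgi. The other pooled summits of the lin-35 window had signals of 37.79 at 1963 bp upstream, inside vps-51, and 43.92 at 595 bp downstream of the 5′ end, in an intron. The window thus held 1 strong summit, with both others below the median of the relaxed list.

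efl-1 encodes an E2F factor, the DNA-binding partner through which Rb reaches its target genes (WBGene00001161, chromosome V 16958590 to 16965675, minus strand). Its summit lay at 16965883, 208 bp upstream of the 5′ end. The signal was 97.02 in replicate 2, 77.16 in replicate 1 and 175.0 pooled. The efl-1 peak was thus above the median of the optimal list, and 5.26% of all genes had a pooled summit as strong. A weaker pooled summit of 54.74 followed 199 bp further from the gene, which is also the smallest gap between summits in these lists. fbxa-90, an F-box family gene, is transcribed away from efl-1 across a gap of 1139 bp, and the summit lay 931 bp from its 5′ end, inside its promoter window too. Here efl-1 was the nearer gene.

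dpl-1 encodes the DP subunit that pairs with E2F (WBGene00001061, chromosome II 9169910 to 9172565, plus strand), and it had the weakest signal of the 10 genes. Its strongest summits reached 33.91 in replicate 2, 23.29 in replicate 1 and 49.95 pooled. The pooled summit ranked 17080 at 275 bp upstream, with a −log10 q of 0.0875, and 55.6% of all genes had a summit as strong. The 3 summits were 416 bp (replicate 2), 154 bp (replicate 1) and 275 bp (pooled) upstream, so the replicates placed them on either side of the pooled one. All 3 lay inside T23G7.2, which overlaps dpl-1 on the opposite strand. The genes for the partners of the E2F–DP dimer therefore sat on opposite sides of the threshold.

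**Figure D2:**
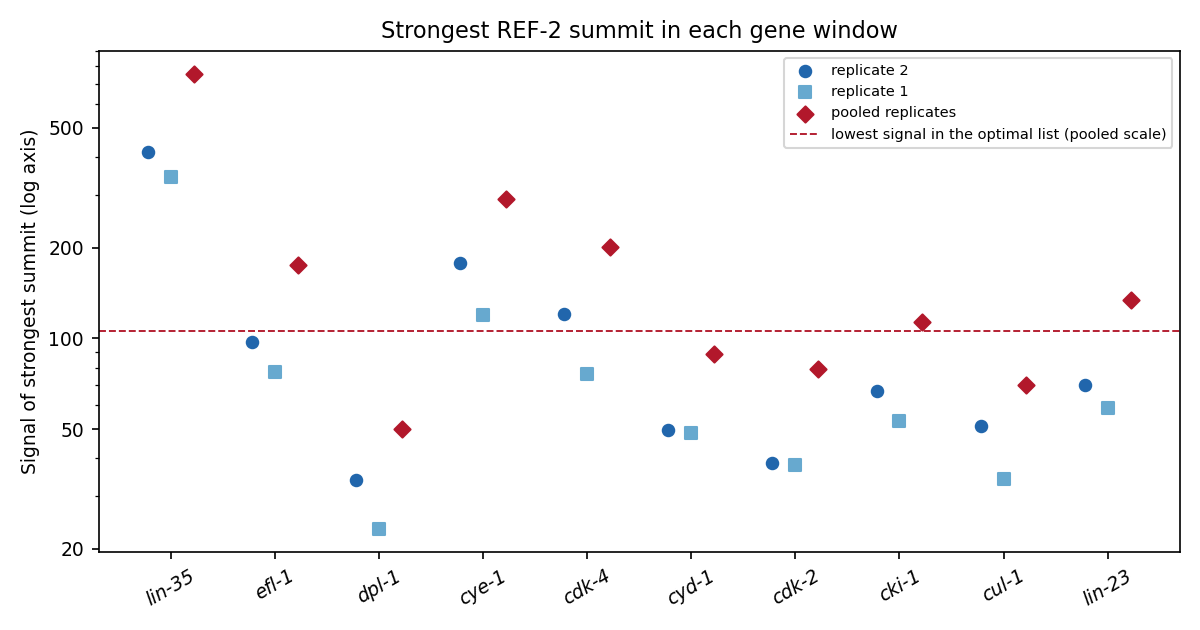
Signal of the strongest summit in each gene's window on a log axis, taken separately in the list of replicate 2 (circles), of replicate 1 (squares) and of the pooled replicates (diamonds), which are on different scales. The dashed line is the lowest pooled signal of the optimal list (105.5): 6 genes have a diamond above it, lin-35 is highest in all 3 lists and dpl-1 lowest in all 3.

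Of the cyclin and kinase genes, cye-1 and cdk-4 had optimal summits, while their partners cdk-2 and cyd-1 had none. cye-1 encodes cyclin E, which drives entry into S phase (WBGene00000871, chromosome I 6780799 to 6784397, plus strand). At the upstream summit, 6780226, the signal was 86.52 in replicate 2, 93.13 in replicate 1 and 182.3 pooled. At the intronic summit, 6781786, it was 178.1 in replicate 2, 119.8 in replicate 1 and 291.0 pooled. The intronic summit was thus the stronger in both replicates, and the upstream one was the only optimal summit of the 10 genes with a lower value in replicate 2.

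Neither cye-1 summit was close to the 5′ end of cye-1 alone. The upstream one lay 573 bp from it and 75 bp from the 5′ end of pqn-21, a gene for a glutamine- and asparagine-rich protein that is transcribed away from cye-1 across 648 bp. The intronic one lay 987 bp downstream of the 5′ end and 17 bp from a tRNA gene, WBGene00022955, which lies in the same intron on the same strand. The summits of the separate replicates fell inside that tRNA gene. Whether the tRNA gene has a part in the intronic signal was not tested. In the upstream window, E2F words lay 48 and 66 bp from the summit and a CHR word 84 bp from it, and the intronic window held none of the words searched.

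cdk-2 encodes the kinase that cyclin E activates (WBGene00019362, chromosome I 3410013 to 3416368, plus strand). Its strongest pooled summit, 78.9, lay past the gene's end, 6537 bp from the 5′ end, and had 38.46 in replicate 2 and 37.95 in replicate 1. The summit nearest the 5′ end, 107 bp upstream, had 35.7 in replicate 2, 29.3 in replicate 1 and 65.15 pooled. Both were found in each replicate but stood below the optimal list, the first at rank 4772 (−log10 q 0.348) and the second at rank 8429 (−log10 q 0.173) of the pooled list. Words were searched at the optimal summits and, for genes without one, at no more than the 2 strongest pooled summits. Other pooled summits were not searched. Of the windows searched, that at 107 bp upstream of cdk-2 was the only one to hold all 3 kinds of word. It held a Zic core 8 bp and an E2F word 24 bp from the summit. It and the window 713 bp upstream held the only pooled summits before the 5′ end. The upstream neighbour, W05F2.4, was 2824 bp away.

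cdk-4 encodes the kinase that acts with cyclin D in G1 (WBGene00000406, chromosome X 13515856 to 13518911, minus strand). At its summit, 13519188, 277 bp upstream, the signal was 120.8 in replicate 2, 76.14 in replicate 1 and 200.4 pooled. Of the 7 optimal summits of the 10 genes, the replicates differed most here, with a log2 ratio of 0.67 of replicate 2 over replicate 1, and their summits lay 0 bp (replicate 2) and 44 bp (replicate 1) from the pooled one. A weaker pooled summit of 66.3 lay 199 bp further upstream. Both fell in the gap of 752 bp between cdk-4 and F18H3.1, transcribed away from it. The main summit was 475 bp from the 5′ end of F18H3.1 and so closer to cdk-4, and 3.985% of all genes had a pooled summit as strong.

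cyd-1 encodes cyclin D, the partner of cdk-4 (WBGene00000870, chromosome II 12980591 to 12993117, plus strand). It had the longest window, 15527 bp, and the most pooled summits, 11, of which 9 were intronic and 5 had a summit within 200 bp in both replicates. The strongest lay in an intron at 12987763, with 42.88 in replicate 2, 48.52 in replicate 1 and 88.38 pooled. That is 83.8% of the lowest optimal signal. It lay 7172 bp from the 5′ end of the gene but 460 bp upstream of the start of its shorter annotated transcript. The next, 5332 bp from the gene's 5′ end, had 43.28 in replicate 2, 31.89 in replicate 1 and 73.41 pooled, and its window also held a Zic core, 63 bp from the summit. Replicate 2 had its own highest summit elsewhere in the gene, 49.79 at 4099 bp. The −log10 q of the 11 pooled summits was 0.064 to 0.543, so none is shown to be above background. They were mostly intronic, with a single one upstream of the gene, of 42.42.

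cki-1 encodes a p27-like inhibitor that holds cells in G1 (WBGene00000516, chromosome II 7811240 to 7812105, plus strand). It had the weakest optimal summit of the 6 genes, at 7811011, 229 bp upstream, with 66.77 in replicate 2, 53.12 in replicate 1 and 113.1 pooled. It ranked 1814 of 2129, and 11.2% of all genes had a pooled summit as strong. Its −log10 q was 1.413 in replicate 2, 1.105 in replicate 1 and 1.219 pooled, the lowest of the 6 genes in each. cki-1 was the shortest of the 10 genes at 866 bp, and its upstream neighbour, glr-4, was 16918 bp away, so no other protein-coding promoter window held the summit. Further pooled summits lay on both sides, at 1820 bp upstream (75.44 pooled, 58.13 in replicate 2 and 19.95 in replicate 1) and past the gene at 1351 bp (83.22 pooled, 39.56 in replicate 2 and 44.85 in replicate 1). The upstream one lay 11 bp from the noncoding RNA gene T05A6.15 and the downstream one 12 bp from T05A6.17. Their part in these signals was not tested, and the upstream one differed between the replicates more than any optimal summit of the 10 genes.

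lin-23 and cul-1 encode parts of SCF ubiquitin ligases, lin-23 a beta-TrCP-like F-box protein that binds substrates and cul-1 the cullin scaffold. Loss of either gives extra cell divisions in the worm. At lin-23 (WBGene00003009, chromosome II 6371303 to 6374776, plus strand) the optimal summit, 6370325, had 70.24 in replicate 2, 58.83 in replicate 1 and 133.8 pooled. It lay 978 bp upstream, the farthest of the 6 upstream summits, and in no other protein-coding gene's promoter window. The noncoding gene linc-27 lay beyond it on the opposite strand, at −1576 to −1426 bp from the 5′ end of lin-23. The summit was closer to the 5′ end of linc-27 than to that of lin-23, so it is not assigned to lin-23 alone. The upstream neighbour, ctsa-4.1, was 2212 bp away. The other 3 pooled summits of lin-23, up to 57.73, were in its coding exons and 3′ UTR.

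At cul-1 (WBGene00000836, chromosome III 10471237 to 10475129, plus strand) 6 pooled summits between 37.57 and 70.02 were spread along the window, with none in the optimal list. The strongest was in a coding exon 2610 bp from the 5′ end, with 41.58 in replicate 2, 34.06 in replicate 1 and 70.02 pooled, at a −log10 q of 0.22. At 110 bp upstream the pooled signal was 60.48. There replicate 2 had 51.11, its highest value at cul-1, and replicate 1 had no summit within 200 bp. The promoter-proximal summit of cul-1 thus rested on 1 replicate, while 4 of the 6 pooled summits were matched in both. The summits at the edges of the window lay inside other genes, 344 bp from the 5′ end of D2045.5 and 45 bp from that of D2045.9.

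Across the threshold, the genes just inside the optimal list were cki-1 (113.1) and lin-23 (133.8), and those just outside were cyd-1 (88.38) and cdk-2 (78.9). In a pooled list cut at 4258 peaks, cyd-1 joined the 6 genes, while 21.6% of all genes had a summit. The strongest pooled summit per window had a median of 123.5 over the 10 genes (49.95 to 756.7), and of 65.44 over the 14269 genes of all that had one. The 10 windows were also longer, with a median of 6746 bp against 5027 bp for all genes, and held a median of 3 pooled summits against 1. The part of window length in these values was not tested.

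The replicates ranked the same 6 genes above the rest, which the selection partly fixed. The optimal list was thresholded on reproducibility between these same replicates, and the genes were chosen with it seen. Each of the 7 optimal summits was among the 2129 strongest of replicate 2 and of replicate 1, and in each replicate no other of the 10 genes had one, against 12.5% of all genes in replicate 2 and 13% in replicate 1. At 6 of the 7 summits replicate 2 had the higher signal. The log2 ratio of replicate 2 over replicate 1 had a median of 0.33 (−0.11 to 0.67, SD 0.25, n = 7 summits) at the 10 genes and 0.18 (SD 0.45, n = 2112) over all optimal peaks with a match in both. With each signal divided by the median of its relaxed list, the median at the 10 genes was 0.10. The unscaled ratios at the 10 genes lay inside the spread of the whole list. In that list 1 replicate summit could match 2 neighbouring optimal peaks. The lowest ratio there, −2.995, came from such a match, so its spread comes in part from the matching. The pooled signal was 94.3% to 104% of the sum of the replicates at each of the 7.

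**Figure D3:**
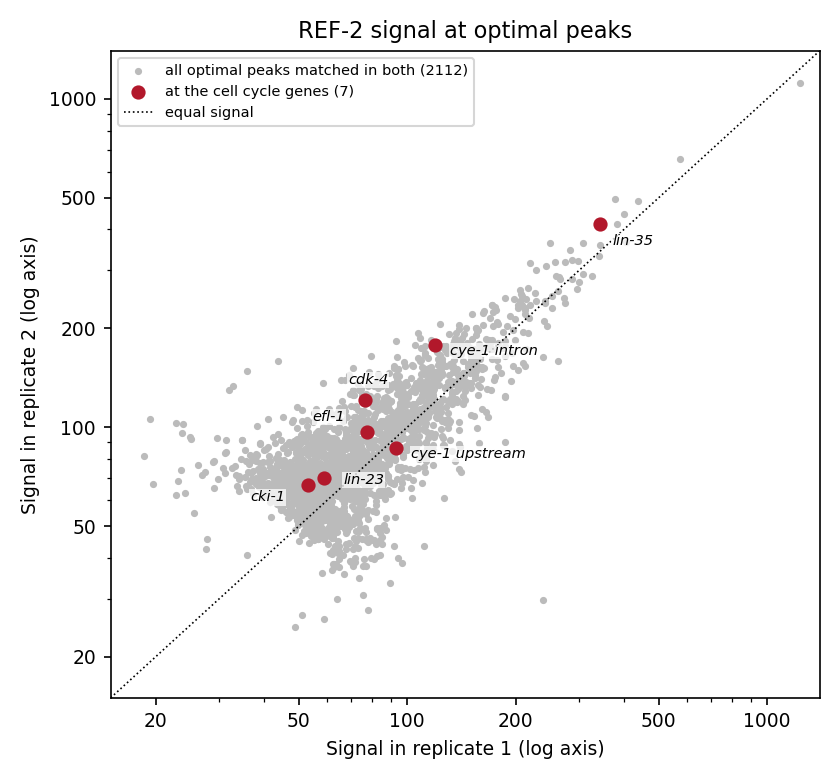
Signal in replicate 2 against replicate 1 (log axes) at 2112 optimal peaks with a summit within 200 bp in both replicates. The 7 summits at the cell cycle genes are in red, and a dotted line marks equal signal. A replicate summit could match 2 neighbouring peaks. The lin-35 point (416.0 in replicate 2, 342.3 in replicate 1) lies near the top of the cloud, and of the 7 red points only the upstream summit of cye-1 lies below the line.

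Shared promoters were common at these genes. Of the 6 optimal summits in their promoter windows, 4 lay in the window of a second protein-coding gene as well, those of lin-35, efl-1, cye-1 and cdk-4, and the 2 unshared ones were those of cki-1 and lin-23. Among all optimal summits in a promoter window, 311 of 972 were shared (32.0%). These 4 genes and cul-1 have a neighbour transcribed away from them within 2000 bp, and 12.3% of all genes in that arrangement had an optimal promoter summit, against 4.22% of other genes. Of these 6 summits, the 4 shared ones were above the median of the optimal list and the 2 unshared ones, 133.8 and 113.1, below it. The intronic cye-1 summit, in no promoter window, was above it too (291.0). Sharing was counted for protein-coding genes only, which leaves out linc-27 near the lin-23 summit. The genes were chosen with these signals seen, so nothing is read from this. Which gene of a pair REF-2 acts on cannot be told from position. Annotated 5′ ends of trans-spliced worm genes can also lie downstream of where transcription starts.

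Sequence under the 7 optimal summits was described with the same words. An E2F word was found at 2 of the 7, the upstream summit of cye-1 and efl-1, against 7.61% of all 2129 optimal summit windows, 3.15% of windows 1000 bp to each side and 3.32% of the 200 bp before the 5′ ends of all protein-coding genes. A CHR word was found at 3, at efl-1, cki-1 and the upstream summit of cye-1, against 31.9% of optimal windows, 49.8% of flanks and 56.1% of promoters. The Zic core was found at none of the 7, against 6.58% of optimal windows, 1.74% of flanks and 1.19% of promoters. No words of the 3 sets overlapped in these windows, and a match or its absence says only whether those letters are there. The windows had a median GC content of 49.0% (36.5% to 54.5%), against 47.5% over all optimal windows, with the lowest at lin-35.

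Other genes of the cell cycle were listed by role for comparison, 76 in all, of which 75 matched the annotation. Of these, 16 had an optimal summit in their window (21.3%, against 12.7% of all protein-coding genes). In their promoter window 11 had one, against a share of 6.29% of all genes. The same shares of all genes stand beside the counts of each list below. Windows of the listed genes were also longer, with a median of 6143 bp against 5027 bp for all genes, and the part of window length was not tested. The median of the strongest pooled signal was 74.29 over the 69 with a summit. The 10 genes and these lists were chosen with results known, so the lists only place the values. They show which close relatives of the 10 genes were and were not in the optimal list.

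Of 8 further Rb, E2F, DREAM and synthetic multivulva genes, 3 had one. The strongest was at lin-54, the DREAM subunit that binds CHR elements, with 142.6 in replicate 2, 175.7 in replicate 1 and 317.0 pooled at 345 bp upstream, in a window shared with the ribosomal protein gene rpl-12. lin-9, another DREAM subunit, had 62.97 in replicate 2, 85.32 in replicate 1 and 148.5 pooled at 135 bp upstream, and a further summit of 139.3 in an intron. lin-53, a histone-binding Rb partner, had 63.48 in replicate 2, 85.86 in replicate 1 and 142.0 pooled, in a window shared with nra-2. lin-35 and efl-1 also had optimal promoter summits, but they were chosen with these peaks seen and are not counted with the listed genes. The summits at lin-35, lin-54 and lin-53 lay nearer to the 5′ ends of vps-51, rpl-12 and nra-2. lin-37 (59.41), lin-52 (83.72), lin-15B (95.04), hpl-2 (69.27) and the E2F gene efl-2 (42.24) had weaker pooled summits only, as dpl-1 did.

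None of 8 other cyclin-dependent kinase, cyclin and inhibitor genes had an optimal summit. cdk-7 (103.4) and cdk-5 (98.02) came nearest to the threshold in the pooled list. In the separate replicates the strongest summits in the cdk-7 window had 74.36 (replicate 2) and 107.8 (replicate 1). Both were above the strongest of cki-1 and lin-23 in the same replicate. At cdk-5 they had 37.44 in replicate 2 and 60.44 in replicate 1. cki-2, the close relative of cki-1, had 77.06 pooled, and the mitotic kinase gene cdk-1 had 56.39. Of 11 SCF and other cullin ligase genes, 1 had one, rbx-1 for the RING subunit, with 54.23 in replicate 2, 67.24 in replicate 1 and 117.6 pooled. It lay 1915 bp upstream, in the promoter windows of ztf-9 and ZK287.7 and not in that of rbx-1. The adaptor gene skr-1 had 67.35, the cullin genes had 94.47 at cul-2, 87.82 at cul-3 and 84.84 at cul-4, and the F-box gene sel-10 had 57.88. Optimal promoter summits in the kinase and SCF groups were those of cye-1, cdk-4, cki-1 and lin-23. Their listed relatives had none, and neither did cyd-1, cdk-2 and cul-1. The genes with summits were chosen with these peaks seen, so nothing is read from that contrast.

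Of 20 replication and S phase genes, many of them E2F targets in animals, 4 had an optimal summit. They were pole-1 for a DNA polymerase epsilon subunit (270.0), orc-2 of the origin recognition complex (195.3, nearer to cyn-4), pcn-1 for PCNA (119.9) and cdc-6 of replication licensing (119.0, nearer to acin-1). Of 28 mitotic genes, 8 had one. Those at bub-1 (217.0), ify-1 (187.7), cdc-14 (153.8), wee-1.3 (149.3) and mdf-1 (108.6) were in the gene's promoter window, those of bub-1 and ify-1 shared with lin-61 and rpl-22. Those at cdc-25.2 (200.5, an intron), fzr-1 (193.4, in the window of sqv-8) and mdf-2 (110.4, in its 3′ UTR near a tRNA gene) were not. The ify-1 summit lay nearer to rpl-22. cdc-14 had a further optimal summit in its promoter window (107.5), shared with ttc-4 and nearer to it, with no match in replicate 2. The pooled signals of these 12 replication and mitotic genes were all below that of lin-35.

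**Figure D4:**
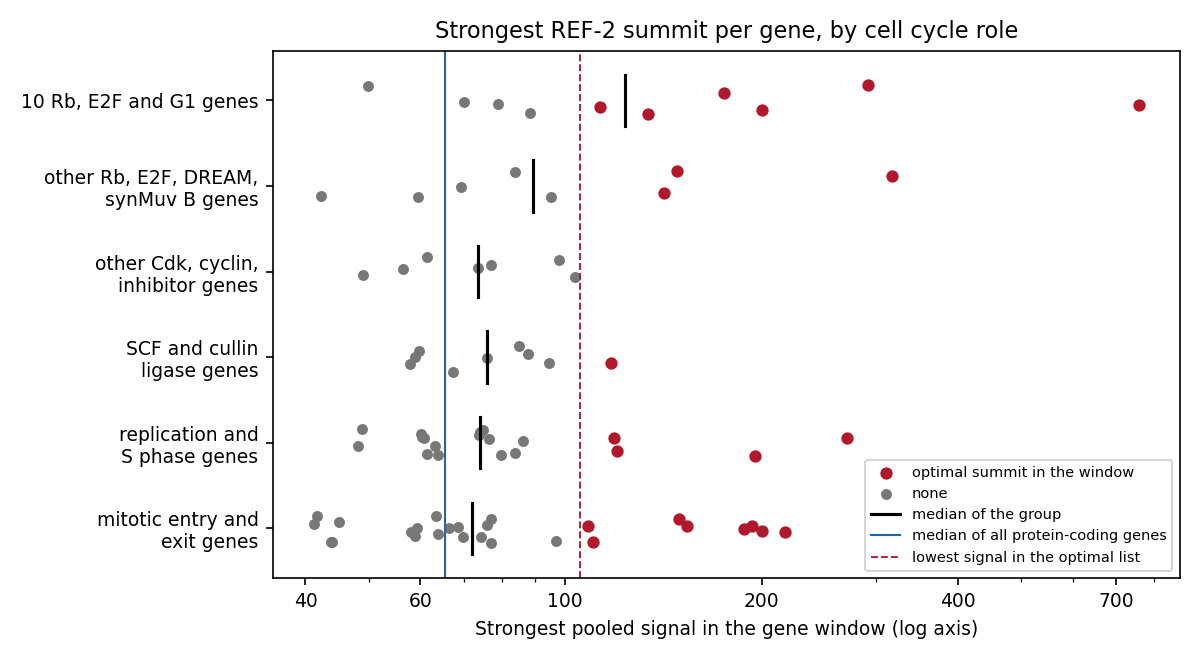
Strongest pooled signal in each gene's window (log axis), 1 dot per gene, for the 10 Rb, E2F and G1 genes and the 5 comparison lists; red dots have an optimal summit, black bars are group medians, the blue line is the median of all protein-coding genes (65.44) and the dashed line the lowest optimal signal (105.5). The bar of the 10 genes (123.5) is right of the dashed line and lin-35 is the rightmost dot; genes with no pooled summit are not drawn.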

How the data were processed

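REF-2 ChIP-seq was done by the authors on 2 biological replicates of 1 group. The deposited lists on ce11 were a relaxed list of 30000 entries per replicate, named as peaks and background, one for the pooled replicates, and an optimal list thresholded on reproducibility (IDR) between replicates, per the labels' file descriptions. The signal per peak and its −log10 q are values deposited by the authors. Aligner, peak caller, use of the named control, versions and signal normalization are not given in the sources used here. Depth is unknown, and the lists on ce10, the other of the 2 builds, were not used here.

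Summits were placed on Ensembl release 115 gene models and the RefSeq sequence of WBcel235 with Python 3.11.15, pandas 2.3.3 and numpy 2.4.6. Coordinates are 1-based. A summit in several windows counted for each gene. Summits of different lists were matched within 200 bp, and the replicates are compared only there. Window assignment was tested on simulated peaks. Upstream windows ignore intervening genes, so a summit may lie in a neighbour.

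The members and lists were chosen with earlier results of these data known, so no p-value is given. Named were the 10 genes, comparison genes with an optimal summit, members of shared complexes, genes sharing a promoter window with a summit of the 10, and ref-2. unc-119, cdk-1, cdk-5, cdk-7, cki-2, cul-2, cul-3, cul-4, efl-2, hpl-2 and lin-15B were named after their values were seen. Alternatives changed the window, the list length, the replicate, summit matching and the sequence window.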

Additional observations from a re-analysis of the deposited data

How the results depend on the processing

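Of 50 alternatives, 38 left the value within 1.5 times for counts or within the spread for signals and ratios. These include the alternatives for each of the 3 sets of words, which break down the count of summits with any word. The Zic core count stayed at 0 in all 4 of its alternatives. The 6 genes with an optimal summit became 1 in the gene body alone (cye-1), were 4 in the strongest 1064 peaks, and 5 when a summit counted only for the nearest 5′ end, an alternative chosen after the data were seen, which gave the lin-35 peak to vps-51. The nearest 5′ end alternative also gave the upstream cye-1 summit to pqn-21, so cye-1 stayed by its intronic summit alone. The 6 genes kept a summit with each replicate alone. They also kept one when summits within 200 bp of noncoding genes were left out, also chosen after the data were seen. There cye-1 stayed by its upstream summit alone. The 16 comparison genes became 3 in the gene body alone, 10 in the strongest 1064 peaks, 26 in the pooled list of 4258 peaks and 9 by nearest 5′ end. The median signal of 182.3 at the 7 summits was 77.16 to 97.02 in a single replicate, whose list has its own scale. The 3 summits with any word were 1 in 100 bp windows and 5 in 400 bp windows, by the length searched.

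No paired analysis was possible because there was 1 group. Signal has no unit shared between lists, reads and the control were not analysed here, and nothing in these lists separates the members of a shared promoter.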
